A study of Homo sapiens with 2 samples.

Results

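The aminoacyl-tRNA synthetase genes were examined in 2 human colon cancer cultures, HCT-8/V, a derivative resistant to vincristine, and its parental line HCT-8. Vincristine is a plant alkaloid that binds tubulin. By the labels, both cultures had received pcDNA3.1-Twist, a plasmid for expression of the transcription factor Twist, 48 h before RNA was taken. The labels give both the same treatment text, and whether either culture was meant as an untreated control is not settled by them. Both were cultured in RPMI medium supplemented with serum. RNA of each culture was measured on 1 Illumina bead array, so there is 1 sample per line and no difference could be tested. Neither the vector without insert nor untransfected cells were analysed here, so every comparison is between the lines and none shows the effect of the plasmid.

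Members were chosen by name from the probe annotation, as all symbols made of a capital letter and ARS with an optional 1 or 2, plus EPRS1, FARSA, FARSB, AIMP1 and AIMP2. The rule uses names alone, although the gene family was picked with earlier results of these data known. This found 35 genes on 40 probes, of 20046 genes on 30113 probes with a single gene symbol. Of the 35 genes, 18 encode enzymes of the cytosol, 16 encode enzymes of mitochondria, and AIMP1 encodes a scaffold protein. GARS1 and KARS1 are counted with the cytosolic enzymes although each gene serves both compartments. CARS1 and AIMP2 were not analysed here.

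Aminoacyl-tRNA synthetases attach each amino acid to its tRNA, the step that fixes the meaning of the genetic code. Most amino acids have a nuclear gene for the cytosolic enzyme, with the suffix 1, and another for the mitochondrial enzyme, with the suffix 2. The enzymes fall into class I and class II, which have unrelated catalytic folds. Several cytosolic enzymes sit with AIMP scaffold proteins in the multi-synthetase complex, and many cytosolic genes are known targets of ATF4, the transcription factor induced when amino acids run short.

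ATF4 acts on such genes through the amino acid response element. Its core TGATGNAA was sought on both strands of the RefSeq promoter table of build GRCh38.p14, from 250 bases before to 50 bases after each annotated start. The core was present in 3.62% of all 35116 promoters and in 7 of 40 promoters of the members, which came from 7 of the 30 members with an entry. The 7 genes with the core were 6 of 15 cytosolic and 1 of 14 mitochondrial enzymes. The members without an entry were AARS2, LARS1, VARS1, VARS2 and YARS1. They are shown because the amino acid response genes are compared with the synthetases below. Each line runs 5′ to 3′ on the strand that reads TGATG, and the capitals mark the core.
AARS1, chr16:70289675-70289704, plus strand: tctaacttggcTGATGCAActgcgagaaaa
IARS1, chr9:92293692-92293721, plus strand: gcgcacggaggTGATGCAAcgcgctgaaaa
MARS1, chr12:57488053-57488082, minus strand: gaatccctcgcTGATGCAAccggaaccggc
NARS1, chr18:57621804-57621833, minus strand: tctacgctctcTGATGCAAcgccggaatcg
TARS1, chr5:33440956-33440985, minus strand: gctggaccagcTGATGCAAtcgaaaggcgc
GARS1, chr7:30594834-30594863, minus strand: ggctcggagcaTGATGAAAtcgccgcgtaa
YARS2, chr12:32756076-32756105, minus strand: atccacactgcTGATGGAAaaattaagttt

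Of these 7 cores, 5 began within 40 bases of the annotated start. The core of AARS1 lay at -187 to -180 from its start and that of YARS2 at -197 to -190. A match describes letters only and shows no binding, and a promoter without a match may hold the element outside this window.

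HARS1 and HARS2, the histidine enzymes of the cytosol and of mitochondria, are divergent neighbours whose annotated starts enclose 84 bases. The stretch between them is given because the genes share it and differed in direction between the lines. It is written on the plus strand, with HARS1 to its left and HARS2 to its right.
HARS1 to HARS2, chr5:140691371-140691454, plus strand: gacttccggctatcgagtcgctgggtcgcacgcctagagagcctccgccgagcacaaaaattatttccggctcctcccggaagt

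The table holds background-subtracted intensities on a linear scale, whose distributions had been matched between the arrays before deposit. Intensities ran from -44.98 to 19759 on each array, and 29.2% of probes were below 0. A gene was taken as measured above background when its brightest probe exceeded the median of all probes on at least 1 array, a floor of 12.42 in HCT-8/V and 12.44 in HCT-8. A higher floor, the 75th percentile of all probes, lay at 81.35 on both arrays. Levels of different probes cannot be set against each other, because probes differ in how well they hybridise. TWIST1 read 185 in HCT-8/V and 162.5 in HCT-8, and these readings do not settle which transcript, from the plasmid or the cell's own gene, its probe detects. TWIST2 went the other way, at 212 in HCT-8/V and 290 in HCT-8 (log2 -0.45), and the plasmid name gives only Twist. Of 13 colon epithelial markers 5 were above the floor, led by KRT8 (2283 in HCT-8/V, 2199 in HCT-8) and KRT18 (560 in HCT-8/V, 445 in HCT-8). The defining markers CDH1, VIL1, CDX1, CDX2, LGALS4 and MUC2 were below the floor on both arrays. Of 4 leukocyte markers only CD14 was above it, and dim. Of 5 fibroblast markers 4 were above it, with a summed intensity of 1023 in HCT-8/V and 773 in HCT-8, mostly from DCN (854 in HCT-8/V, 625 in HCT-8), and their part in the differences below was not tested.

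Most synthetase genes were measured well above background, and none differed by 2-fold or more between the lines. In all, 34 of the 35 genes were above the floor, 30 of them above the higher floor on both arrays. The 2-fold count was 0 of 34, and 8.01% of all 13763 genes above the floor passed it. Among the 7355 genes above the higher floor on both arrays only 0.517% passed 2-fold, so a count of 0 is near what genes of that brightness gave. By direction, 26 of the 34 read higher in HCT-8/V, where 52.8% of all genes above the floor did. The median log2 difference, HCT-8/V minus HCT-8, was 0.22 over the 34 genes and 0.03 over all genes above the floor. At 1.5-fold or more, 3 of the 34 members were higher in HCT-8/V (background 12.8%) and 1 was lower (background 11.2%). Among the 30 members above the higher floor on both arrays, 3 were higher (background 4.87%) and 0 were lower (background 3.73%). The exception below the floor was AIMP1, which organises the multi-synthetase complex and is also secreted as a cytokine, at 1.07 in HCT-8/V and -1.05 in HCT-8. AIMP1 rests on a single probe, so an absent transcript cannot be told apart from a probe that fails to read it.

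With 1 array per line, the only internal measure of error was a pair of probes for the same gene. Over 1535 genes with a pair of probes above the higher floor on both arrays, the log2 differences of the pair disagreed with an SD of 0.39, or 0.28 per probe, and went in opposite directions for 39.3% of genes. Both probes read the same arrays, so this covers probe error and not the spread between cultures. Most of the 34 synthetase differences were smaller than 0.28, and how far replicate cultures differ was not measured.

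Cytosolic enzymes leaned to HCT-8/V. All 18 were above the higher floor on both arrays, and 17 of the 18 read higher in HCT-8/V, with RARS1 as the exception. Among all 7355 genes above that floor on both arrays, 53.0% read higher in HCT-8/V. The median log2 difference of the 18 was 0.25 (1.19-fold). The middle 50% of those 7355 genes lay between -0.19 and 0.24, with a median of 0.03. At 1.25-fold or more, 6 of the 18 were higher in HCT-8/V (background 18.0%) and 0 were lower (background 14.2%). That threshold was chosen after the values were seen. The 18 genes share the same pair of arrays and are not replicates, so the count describes these cultures.

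**Figure D1:**
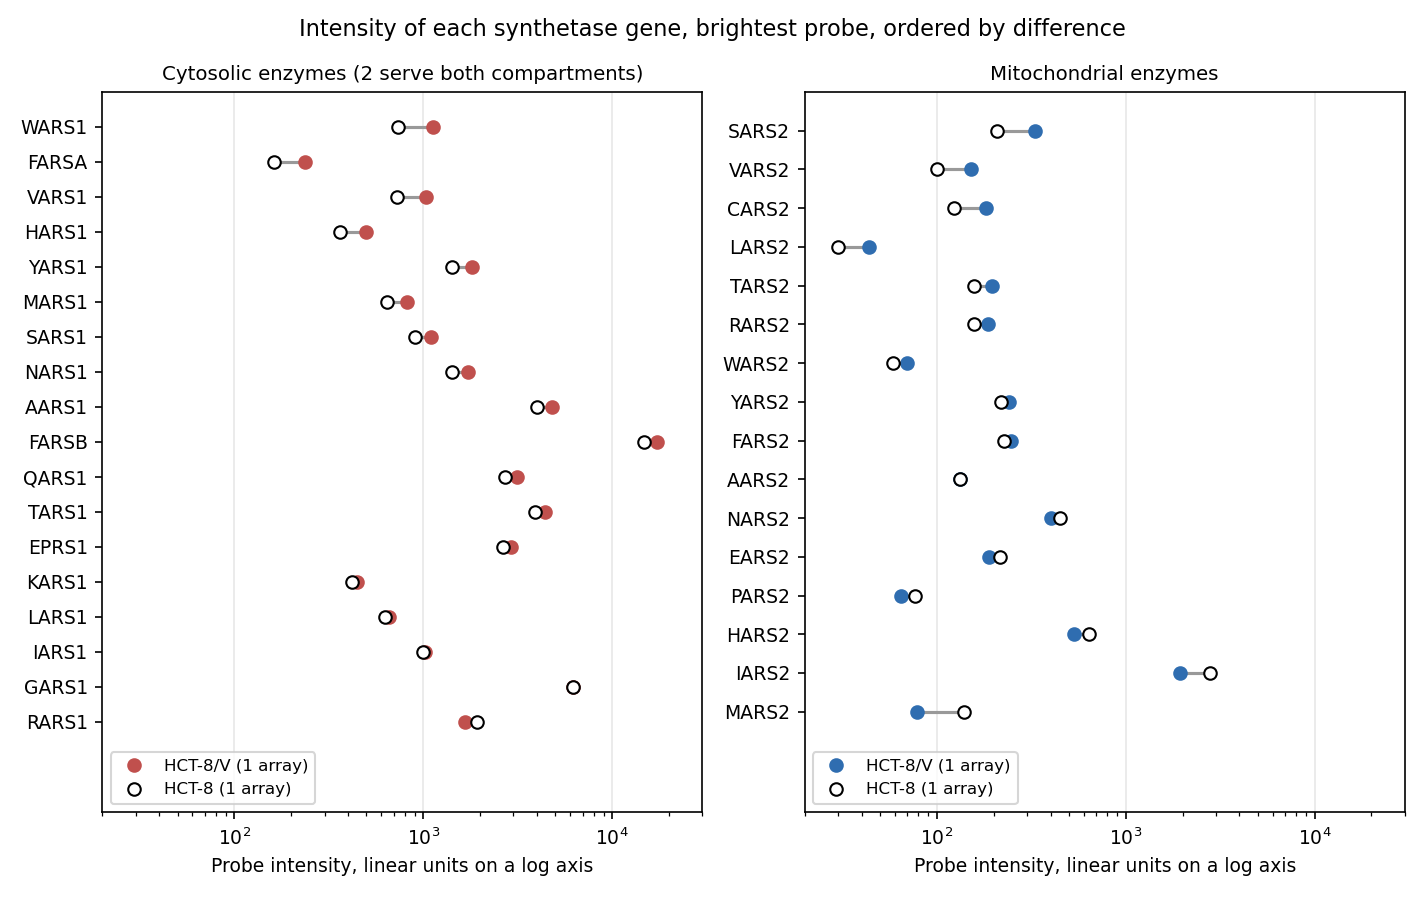
Probe intensity (linear units on a log axis) of each enzyme gene on the HCT-8/V array (filled) and the HCT-8 array (open), 1 array per line, by the brightest probe. In the cytosolic panel the filled point lies to the right for 17 of 18 genes, and in the mitochondrial panel the genes divide into 9 higher and 7 lower in HCT-8/V.

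The largest cytosolic difference was in WARS1, the tryptophan enzyme, whose gene is known to be induced by interferon gamma. Its brightest probe read 1119 in HCT-8/V and 736 in HCT-8, 1.52-fold higher (log2 difference 0.60). The second probe, annotated to another transcript variant, read 602 in HCT-8/V and 471 in HCT-8, 1.28-fold higher. Both WARS1 probes were thus higher in HCT-8/V, by unequal amounts.

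VARS1, the valine enzyme, was the other cytosolic gene with readings above the floor on a pair of probes. Its brightest probe read 1031 in HCT-8/V and 726 in HCT-8, 1.42-fold higher (log2 0.51). Its dim probe read 37.1 in HCT-8/V and 17.8 in HCT-8, 2.08-fold higher. The direction was shared and the size was not, and the larger fold came from readings below the higher floor.

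Phenylalanyl-tRNA synthetase of the cytosol is built from the catalytic subunit FARSA and the partner subunit FARSB. FARSA read 236.5 in HCT-8/V and 162 in HCT-8, 1.46-fold higher (log2 0.55). FARSB read 17222 in HCT-8/V and 14646 in HCT-8, 1.18-fold higher (log2 0.23). Both subunits read higher in HCT-8/V. FARSB's bright probe lay near the array maximum of 19759, and whether its fold is compressed there was not tested. The other probe of the same gene read 15.04 in HCT-8/V and 6.48 in HCT-8. Only the HCT-8/V reading of that probe exceeded the floor, so the gene was at least 1.21-fold higher by it. Which of these probes reads the FARSB transcript was not tested.

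HARS1 read 496 in HCT-8/V and 362 in HCT-8, 1.37-fold higher (log2 0.45). YARS1, the tyrosine enzyme, which is also cleaved into signalling fragments, read 1821 in HCT-8/V and 1410 in HCT-8 (log2 0.37). MARS1, the methionine enzyme that also supplies the initiator tRNA, read 816 in HCT-8/V and 646 in HCT-8 (log2 0.34). These 3 genes complete the 6 cytosolic enzymes past 1.25-fold.

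A close group followed at about 1.2-fold. SARS1, which charges serine tRNA and also the selenocysteine tRNA, read 1094 in HCT-8/V and 909 in HCT-8 (log2 0.27). NARS1, the asparagine enzyme, read 1714 in HCT-8/V and 1426 in HCT-8 (log2 0.27). AARS1, the alanine enzyme, which edits mischarged serine, read 4805 in HCT-8/V and 4022 in HCT-8 (log2 0.26). The log2 differences of these 3 genes differed from each other by less than the probe error.

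QARS1, the glutamine enzyme, read 3115 in HCT-8/V and 2698 in HCT-8 (log2 0.21), and TARS1, the threonine enzyme, read 4413 in HCT-8/V and 3879 in HCT-8 (log2 0.19). EPRS1 joins the glutamate and proline enzymes in a single polypeptide and read 2927 in HCT-8/V and 2647 in HCT-8 (log2 0.14). All 3 lay inside the middle 50% of genes above the higher floor.

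The remaining cytosolic genes were nearly level. KARS1, the lysine enzyme of both compartments, read 445 in HCT-8/V and 421 in HCT-8 (log2 0.08). LARS1, the leucine enzyme, which also acts as a leucine sensor upstream of mTORC1, read 662 in HCT-8/V and 628 in HCT-8 (log2 0.07). IARS1, the isoleucine enzyme, read 1020.0 in HCT-8/V and 996 in HCT-8 (log2 0.03), and its second probe was below the floor on both arrays, at -1.20 in HCT-8/V and 10.1 in HCT-8. GARS1, the glycine enzyme of both compartments, read 6213 in HCT-8/V and 6188 in HCT-8 (log2 0.01), and its direction turned to -0.03 when all genes were centred on their median. RARS1, the arginine enzyme, alone among the 18 read lower in HCT-8/V, at 1656 against 1934 in HCT-8 (log2 -0.22).

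The direction was also compared among genes of like brightness. Of the 11 cytosolic genes with a mean intensity above 1000, 10 read higher in HCT-8/V, where 50.3% of the 1566 genes of that brightness did. Their median log2 difference was 0.21, against 0.0027 for those 1566 genes. The 7 dimmer cytosolic genes all read higher, with a median of 0.45. The share among all genes of that dimmer range was not computed. Over all 7355 genes above the higher floor on both arrays, bright ones included, 53.0% read higher. The limit of 1000 was chosen after the values were seen.

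Within the cytosolic set, enzymes of the multi-synthetase complex differed less than those outside it. The 7 complex enzymes measured (EPRS1, IARS1, KARS1, LARS1, MARS1, QARS1 and RARS1) had a median log2 difference of 0.08 and a range from -0.22 to 0.34, with 6 higher in HCT-8/V. The 11 enzymes outside the complex had a median of 0.27 and a range from 0.01 to 0.60, with 11 higher. The sets overlapped, since MARS1 and QARS1 lay above GARS1 and TARS1, and a difference between the sets could not be tested with 1 array per line. By catalytic fold the medians were 0.27 for 8 class I enzymes and 0.26 for 9 class II enzymes, leaving out EPRS1, which holds both folds.

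**Figure D2:**
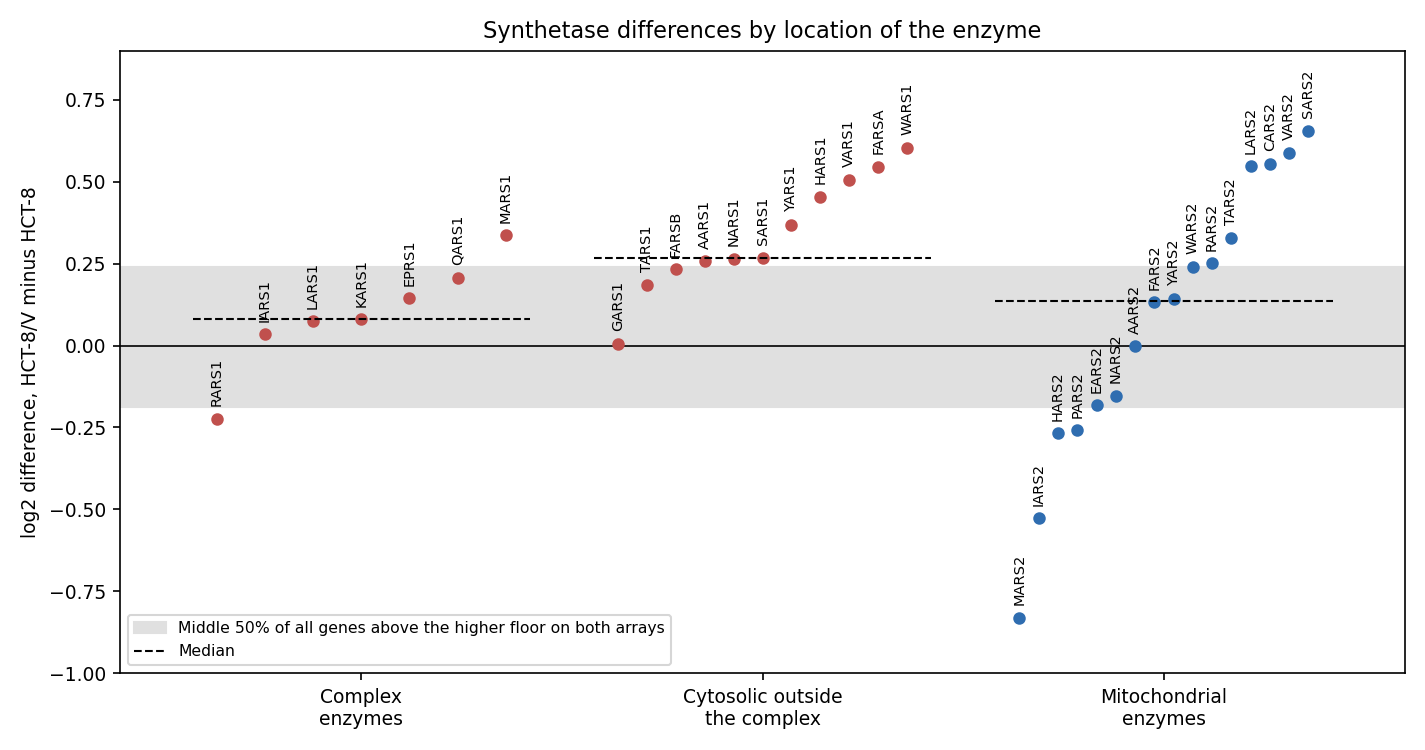
Log2 difference (HCT-8/V minus HCT-8) of each enzyme gene, for complex enzymes, other cytosolic enzymes and mitochondrial enzymes, with the median of each set dashed and the middle 50% of all genes above the higher floor on both arrays shaded (-0.19 to 0.24). MARS1 and RARS1 are the complex enzymes outside the shaded band, 8 of 11 other cytosolic enzymes lie above it, and mitochondrial enzymes spread to both sides.

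Mitochondrial enzymes were divided in direction. Of 16 genes, all above the floor and 12 above the higher floor on both arrays, 9 read higher and 7 lower in HCT-8/V. That share, 56.2% higher, was near the 52.8% of all genes above the floor. Their median log2 difference was 0.14, and the range from -0.83 to 0.66 was wider than that of the cytosolic genes, which ran from -0.22 to 0.60. LARS2, MARS2, PARS2 and WARS2 were below the higher floor on at least 1 array, and over all genes above the lower floor the middle 50% of differences was wider, at -0.27 to 0.33. The part of low readings in the mitochondrial range was not tested.

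The mitochondrial gene with the largest positive difference was SARS2, the serine enzyme, at 329.6 in HCT-8/V and 209 in HCT-8, 1.57-fold higher (log2 0.66). VARS2, the valine enzyme, read 151 in HCT-8/V and 100.5 in HCT-8, 1.51-fold higher (log2 0.59). CARS2, the cysteine enzyme, which also makes persulfides, read 181.5 in HCT-8/V and 124 in HCT-8, 1.47-fold higher (log2 0.55). These 3 were above the higher floor on both arrays and each rests on a single probe.

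LARS2, the leucine enzyme, was dim at 43.8 in HCT-8/V and 29.96 in HCT-8, 1.46-fold higher (log2 0.55, or 0.24 with no floor). TARS2, the threonine enzyme, read 197 in HCT-8/V and 157 in HCT-8 (log2 0.33). RARS2, the arginine enzyme, read 187.5 in HCT-8/V and 158 in HCT-8 (log2 0.25), and WARS2, the tryptophan enzyme, was dim at 69.4 in HCT-8/V and 58.8 in HCT-8 (log2 0.24). Smaller positive differences were found for YARS2, the tyrosine enzyme (241 in HCT-8/V, 219 in HCT-8, log2 0.14), and FARS2, the single-chain phenylalanine enzyme (248 in HCT-8/V, 227 in HCT-8, log2 0.13).

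The 2 mitochondrial genes past 1.25-fold in the other direction were MARS2 and IARS2. MARS2, the methionine enzyme that loads the tRNA for both initiation and elongation in mitochondria, read 78.1 in HCT-8/V and 139 in HCT-8 on its brighter probe, 1.78-fold lower (log2 -0.83). Its second probe went the other way, at 27.4 in HCT-8/V and 22.1 in HCT-8 (log2 0.31), and the mean of the probes gave -0.26. The MARS2 probes therefore disagreed in sign, and this was also the single member at 1.5-fold or more lower. IARS2, the isoleucine enzyme, was bright on its only probe, at 1941 in HCT-8/V and 2798 in HCT-8, 1.44-fold lower (log2 -0.53).

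HARS2 read 534 in HCT-8/V and 643 in HCT-8 (log2 -0.27), and PARS2, the proline enzyme, read 64.4 in HCT-8/V and 77.1 in HCT-8 (log2 -0.26). EARS2, the glutamate enzyme, which also charges the glutamine tRNA of mitochondria for later amidation, read 190.1 in HCT-8/V and 216 in HCT-8 (log2 -0.18), on a probe annotated to a non-coding transcript of the gene. NARS2, the asparagine enzyme, read 401.5 in HCT-8/V and 447 in HCT-8 (log2 -0.15). AARS2, the alanine enzyme, was level at 132.1 in HCT-8/V and 132.2 in HCT-8 (log2 -0.0017) and is counted among the 7 lower genes by sign alone.

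Enzymes for the same amino acid went both the same way and opposite ways between the compartments. There were 16 pairings of a cytosolic with a mitochondrial gene, with FARSA and FARSB each set against FARS2 and EPRS1 against both EARS2 and PARS2. In 8 both genes read higher in HCT-8/V, in 7 only the cytosolic gene did, and in 1, arginine, only the mitochondrial gene did. Valine was the pairing with both genes at least 1.25-fold higher in HCT-8/V, at 0.51 for VARS1 and 0.59 for VARS2. The widest splits were methionine, at 0.34 for MARS1 and -0.83 for MARS2, and histidine, at 0.45 for HARS1 and -0.27 for HARS2. The alanine split rests on AARS2 at -0.0017, by sign alone. Over all genes above the floor 52.8% read higher in HCT-8/V, and pairs of unrelated genes were not counted for comparison. Pairings share the arrays and some share a gene, so the counts are a description.

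**Figure D3:**
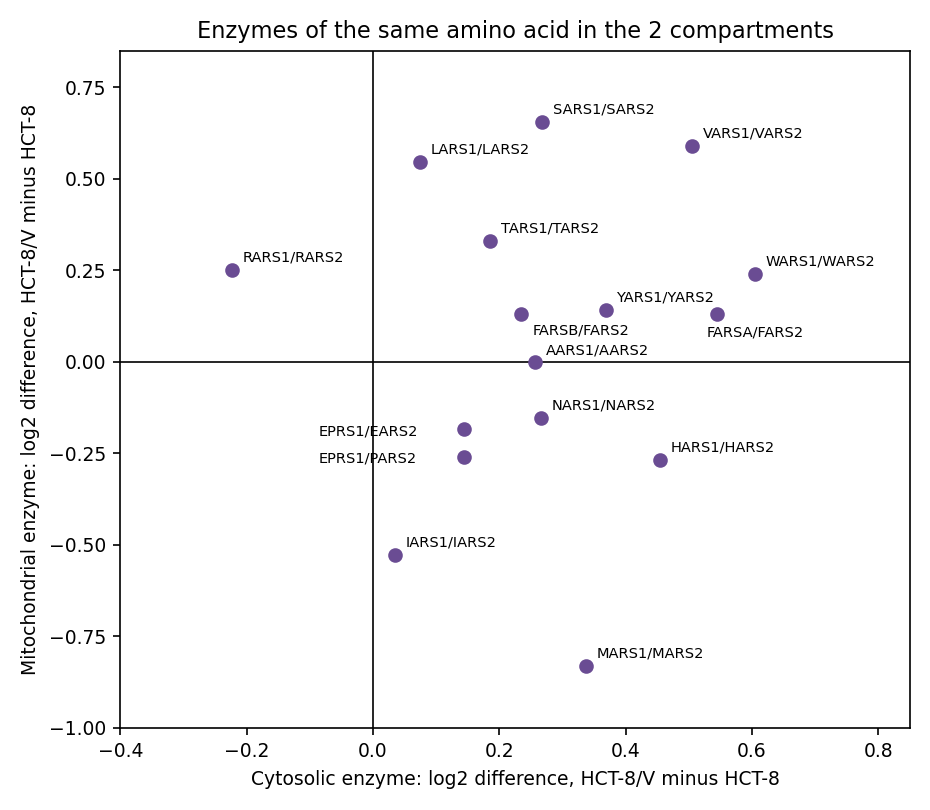
Log2 difference (HCT-8/V minus HCT-8) of the cytosolic gene (horizontal) against the mitochondrial gene (vertical) for each of 16 pairings. In the upper right 8 pairings read higher in HCT-8/V on both counts, 7 lie at or below 0 for the mitochondrial gene alone, and RARS1 with RARS2 lies at the upper left.

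The HARS1 and HARS2 readings came from genes that start 84 bases apart and face away from each other, on the stretch printed above. Of the 30 members with an entry in the promoter table, 8 had an annotated start of another gene within 300 bases on the opposite strand, facing away. Counting HARS1 with HARS2 once, 6 such pairs were measured above the floor. Both genes were higher in HCT-8/V in 3 pairs and the directions were opposite in 3. Over all genes above the floor 52.8% read higher in HCT-8/V, and pairs of unrelated genes were not counted for comparison. Apart from HARS1 and HARS2, every partner gene differed by less than the error per probe, 0.28. The split is therefore a description of these pairs.

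The pairs with both genes higher were SARS2 with MRPS12, a mitochondrial ribosomal protein gene (1980.5 in HCT-8/V, 1663 in HCT-8, log2 0.25), WARS1 with WDR25 (103 in HCT-8/V, 87.4 in HCT-8, log2 0.24), and FARS2 with LYRM4, a factor of iron-sulfur cluster assembly (87.0 in HCT-8/V, 72.7 in HCT-8, log2 0.26). Besides HARS1 with HARS2, the opposed pairs were KARS1 with the telomere protein gene TERF2IP (627 in HCT-8/V, 739 in HCT-8, log2 -0.24) and RARS2 with ORC3, a subunit of the origin recognition complex (165 in HCT-8/V, 190.4 in HCT-8, log2 -0.20). In both of these the synthetase gene was the higher one in HCT-8/V.

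Cytosolic genes reported as ATF4 targets and the other cytosolic genes had similar medians. The 11 measured targets (AARS1, EPRS1, GARS1, IARS1, LARS1, MARS1, NARS1, SARS1, TARS1, WARS1 and YARS1) had a median log2 difference of 0.26, with 11 higher in HCT-8/V. The 7 others (FARSA, FARSB, HARS1, KARS1, QARS1, RARS1 and VARS1) had a median of 0.23, with 6 higher. Among all genes above the higher floor on both arrays 53.0% read higher. GARS1 is counted among the 11 by sign alone, at 0.01, and turned to -0.03 on centring. Medians were also similar by promoter letters. The 6 cytosolic genes with the TGATGNAA core printed above had a median of 0.22 and a range from 0.01 to 0.34, and the 9 with a promoter entry and no core had a median of 0.23 and a range from -0.22 to 0.60.

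Other genes of the amino acid response leaned in the same direction as the cytosolic synthetases. Of 42 listed genes 41 were measured and 38 were above the floor. Of these 38, 27 read higher and 11 lower in HCT-8/V, with a median log2 difference of 0.29. Over all genes above the floor 52.8% read higher, with a median of 0.03. At 1.5-fold or more 5 of the 38 were higher and 0 lower, where 12.8% and 11.2% of all genes above the floor were. All 5 were among the 35 genes above the higher floor on both arrays, where the backgrounds were 4.87% higher and 3.73% lower. ATF4 itself was nearly level, at 4843 in HCT-8/V and 5119 in HCT-8 (log2 -0.08).

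TRIB3, a pseudokinase that restrains ATF4, had the largest difference of the list, at 848 in HCT-8/V and 471 in HCT-8, 1.80-fold higher (log2 0.85). PPP1R15A, the phosphatase subunit that ends the stress response, read 521 in HCT-8/V and 332 in HCT-8, 1.57-fold higher. In the other direction, CTH of cysteine synthesis read 524 in HCT-8/V and 699.6 in HCT-8, 1.33-fold lower, and the stress factor ATF3 read 579 in HCT-8/V and 706 in HCT-8, 1.22-fold lower. ASNS, asparagine synthetase, a marker target of ATF4, read 1792 in HCT-8/V and 1442 in HCT-8, 1.24-fold higher. EIF2AK4 encodes GCN2, the kinase that senses uncharged tRNA, the substrate of the synthetases, and read 595 in HCT-8/V and 470.4 in HCT-8, 1.26-fold higher (log2 0.34). ASNS, EIF2AK4 and ATF4 were named for their roles after their values were seen.

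**Figure D4:**
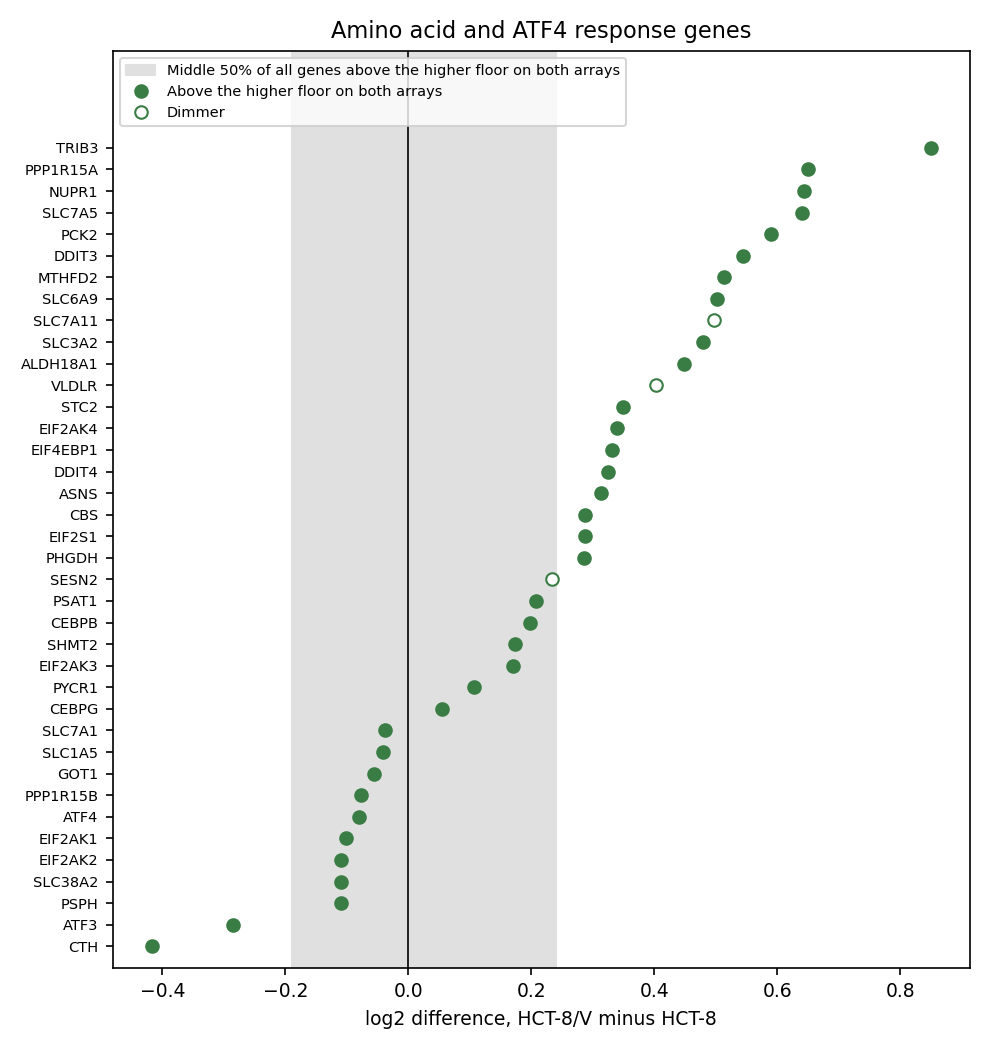
Log2 difference (HCT-8/V minus HCT-8) of the 38 amino acid and ATF4 response genes above the floor, in order of size, with genes above the higher floor on both arrays filled and the middle 50% of all such genes shaded (-0.19 to 0.24). The genes run from CTH at -0.42 to TRIB3 at 0.85, and 27 of 38 lie above 0.

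WARS1 is the synthetase gene most closely tied to interferon, and one of its annotated promoters holds a GAS core (TTCNNNGAA, 7.66% of all promoters) and an IRF element (GAAANNGAAA, 3.57% of all promoters), each sought on both strands in the same window. Both are shown on the minus strand, the strand of WARS1, with the match in capitals. The GAS core began at -142 and the IRF element at -55 from that start. Neither was particular to WARS1 among the 30 members with an entry. The GAS core was found in 4 (also PARS2, TARS1 and WARS2) and the IRF element in 2 (also EARS2). PARS2 and EARS2 read lower in HCT-8/V (log2 -0.26 and -0.18), and TARS1 and WARS2 higher (0.19 and 0.24).
WARS1 GAS core, chr14:100375471-100375499: gctcaagtgtTTCTGAGAAtctgggtgat
WARS1 IRF element, chr14:100375383-100375412: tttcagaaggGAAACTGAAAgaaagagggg

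The interferon gamma list as a whole was divided, with 8 of 18 genes above the floor higher in HCT-8/V, 10 lower and a median log2 difference of -0.01. The share higher over all genes above the floor was 52.8%. Among the 13 list genes above the higher floor on both arrays, 8 were higher and 5 lower, with a median of 0.15. Of all genes above that floor on both arrays, 53.0% read higher, with a median of 0.03. IRF1, a transcription factor that acts on IRF elements, read 292 in HCT-8/V and 98.4 in HCT-8, 2.97-fold higher, and the immunoproteasome gene PSMB9 read 127 in HCT-8/V and 93.01 in HCT-8, 1.37-fold higher. JAK1, the receptor kinase, was 2.05-fold lower at 176 in HCT-8/V and 362 in HCT-8, and TAP2, of peptide transport, was lower at 186 in HCT-8/V and 232 in HCT-8 (log2 -0.32). WARS1 and IRF1 were both higher in HCT-8/V. GBP1, CXCL9, CXCL11 and IDO1, genes that respond strongly to interferon gamma, were below the floor on both arrays, as were GBP5, CIITA and ICAM1. Well measured genes of the list included TAP1 (1728 in HCT-8/V, 1327 in HCT-8), PSMB8 (960 in HCT-8/V, 759 in HCT-8) and PSMB10 (366 in HCT-8/V, 282 in HCT-8). GBP2 was lower in HCT-8/V, at 491 against 553 in HCT-8. Apart from WARS1 and IRF1, these genes were named after their values were seen. Whether interferon has a part in these readings was not tested.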

How the data were processed

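The authors deposited 1 intensity per probe and array for 47323 probes on 2 Illumina bead arrays, and how background and scale were handled is not given in the sources used here. The deposited intensities are, judging by their range and nearly identical quantiles, linear, background-subtracted and matched in distribution, which would hide a shift common to most genes. Of the probes, 30113 had a single symbol in the platform annotation, 8 had several and 17202 had none. Symbols were updated through Entrez IDs with RefSeq GRCh38.p14, which 30074 probes matched. Each gene was read from its probe of highest mean intensity. Readings under an array's median (50th percentile) were raised to it before log2, and HCT-8 was subtracted from HCT-8/V. Folds are lower bounds where a single array was above the floor. With 1 array per line no test was possible, and the number of arrays limits the precision. Alternatives were the 75th percentile floor, no floor, all probes, quantile normalization, centring, loess (span 0.3) and other fold thresholds. From each other list, the genes named were the 2 with the largest difference in each direction above the higher floor on both arrays, and exceptions are marked. The members and lists were chosen with earlier results of these data known. The calculation was tested on simulated data whose noise was far below the error per probe. That run checks the arithmetic and not the precision of the differences given here. Python 3.11.15, pandas 2.3.3 and statsmodels 0.14.6 were used.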

Additional observations from a re-analysis of the deposited data

How the results depend on the processing

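No member passed 2-fold under any of the 6 alternative floors, probe rules and scalings, or at 3-fold. At 1.5-fold 4 of 34 members passed, 3 higher and 1 lower in HCT-8/V (backgrounds 12.8% and 11.2% of all genes above the floor). At 1.25-fold, a threshold added after the values were seen, 13 passed, 11 higher and 2 lower. Of all 13763 genes above the floor, 3548 were higher and 3025 lower at that threshold. Neither count of members stands out from these backgrounds. The median log2 difference of cytosolic genes ran from 0.21 to 0.26 over these 6 alternatives, that of mitochondrial genes from 0.10 to 0.14, and that of all members from 0.19 to 0.22. Centring turned GARS1 to -0.03, leaving 16 of 18 cytosolic genes higher in HCT-8/V, and it was the only direction among the members to turn. LARS2 (0.24 with no floor) and MARS2 (-0.26 with all probes) moved by more than the error per probe, 0.28. The list of other genes related to tRNA charging or modification moved from a median of 0.44 to 0.13 at the higher floor. There 4 of its 11 genes were left. The interferon gamma median turned from -0.01 to 0.13 at that floor, with 14 of 18 left. Centring turned the elongation factor median (0.01) to -0.02, and the tRNA processing median (0.01) lay between -0.07 and 0.05. No paired analysis was possible because each line has a single array. Most synthetase differences lie near the error per probe, and replicate cultures would be needed to read a difference in any single gene.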

Other observations

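Other genes related to tRNA charging or tRNA modification were mostly higher in HCT-8/V but dim. Not all of them complete charging, since the list also held PUSL1, TRMU and DTD1. Of 13 listed genes 11 were measured, of which 9 read higher and 2 lower in HCT-8/V, where 52.8% of all genes above the floor read higher. The median log2 difference was 0.44, or 0.23 with no floor, and 3 of the 11 were above the higher floor on both arrays. PUSL1, a pseudouridine synthase-like gene, read 187 in HCT-8/V and 137 in HCT-8, 1.36-fold higher, and DTD1, which removes D-amino acids from tRNA, read 110.1 in HCT-8/V and 98.3 in HCT-8, 1.12-fold higher. TRMU, which thiolates mitochondrial tRNA, was 2.11-fold higher at 39.97 in HCT-8/V and 18.9 in HCT-8, and TARS3, a threonine enzyme whose symbol lies outside the naming rule, was 1.66-fold higher at 27.3 in HCT-8/V and 16.5 in HCT-8. TRMU and TARS3 were below the higher floor and were named after their values were seen.

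The steps before and after charging were divided in direction. Of 26 measured genes of tRNA processing and export, 14 read higher and 12 lower in HCT-8/V (median log2 difference 0.01). The share higher, 53.8%, was near the 52.8% of all genes above the floor. XPOT, the exporter that carries mature tRNA out of the nucleus, read 149 in HCT-8/V and 285 in HCT-8, 1.91-fold lower, and the ribonuclease P gene RPP25 was 1.30-fold lower at 276 in HCT-8/V and 359 in HCT-8. The splicing endonuclease gene TSEN54 was 1.49-fold higher at 165 in HCT-8/V and 111 in HCT-8, and POP7 of ribonuclease P was 1.41-fold higher at 433 in HCT-8/V and 308 in HCT-8. Of 10 elongation factor genes, which bring charged tRNA to the ribosome or act after it, 5 read higher and 4 lower, with a median of 0.01. EEF1A1 held the same value, 19104, on both arrays. All 10 were above the higher floor on both arrays, where 53.0% of all genes read higher, so this count was also near background. TSFM of mitochondria was 1.57-fold higher at 207 in HCT-8/V and 132 in HCT-8, and EIF5A was 1.27-fold higher at 1831 in HCT-8/V and 1437 in HCT-8. EEF1G was 1.22-fold lower at 7388 in HCT-8/V and 8983 in HCT-8, and EEF1B2 was 1.18-fold lower at 4791 in HCT-8/V and 5638 in HCT-8.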
